A study of Mus musculus with 5 samples.

Results

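A set of 9 semaphorin genes and the semaphorin receptor gene Cd72 were followed in mouse macrophages given the semaphorin Sema3G: Sema3c, Sema4a, Sema4b, Sema4c, Sema4d, Sema4f, Sema6b, Sema6d, Sema7a and Cd72. They were chosen by symbol, and all 10 were found among the 24419 rows of the gene table. The cells were bone marrow-derived macrophages (BMMs) of the C57BL/6 mouse strain, grown for 5 days with M-CSF at 50 ng/ml and then stimulated with LPS, a bacterial cell wall component, at 100 ng/ml. For 18 h, 2 samples received PBS and 3 received recombinant Sema3G at 100 ng/ml, and every sample of both groups had been given LPS. The Sema3G used in the study was an Fc-tagged protein made in a human embryonic kidney cell line, so the PBS samples are controls for neither the tag nor the source of the protein. The sources used here do not say whether the samples came from separate animals or cultures, and p-values then measure only the spread between these samples.

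Semaphorins are secreted or membrane-bound ligands that steer axons, vessels and immune cells, and they signal mainly through plexins, with neuropilins as co-receptors for most of the secreted class. The added ligand, Sema3G, is a secreted class 3 semaphorin that binds neuropilin-2. Myeloid cells make several class 4 semaphorins, among them Sema4D, also known as CD100, which binds plexin B1, plexin B2 and CD72, and Sema4A, known for its action on T cells. CD72 is not a semaphorin but an inhibitory surface receptor of B cells and macrophages that recruits the phosphatase SHP-1, the product of Ptpn6.

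The macrophages carried 3 of these RNAs at high levels and the rest at low levels or not detectably. Cd72, Sema4d and Sema4a averaged 186, 126 and 107 CPM (counts of the gene relative to the total of its library, with each RNA molecule counted once) over the 5 libraries, while no other member averaged above 8.05 CPM. All 3 abundant RNAs were lower in every Sema3G library than in either PBS library, with log2 fold changes of -0.39 for Cd72, -0.33 for Sema4d and -0.51 for Sema4a. The same separation was seen in 26.5% of all genes tested, 67.5% had a log2 fold change below 0, and for Sema4d the groups overlapped once Rn45s and unlisted UMIs were left out of the totals. None of the 7 members tested passed an adjusted p of 0.05 in limma, as 1.80% of all genes did. Sema4a passed it only in a fit with a replicate block (adjusted p = 0.0491 from limma), which has 1 residual degree of freedom and called 5.68% of all genes, while the same estimate without Sema3G replicate 3 had an adjusted p of 0.392 from limma.

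The 5′ ends of the genes differ in sequence, and 4 of them are shown because they are those of the 3 abundant RNAs and, for contrast, of the member with the most CG dinucleotides. Each is the RefSeq window of 300 bases at the farthest upstream of the gene's starts in the RefSeq table used (GRCm38.p6), with 250 bases before the start and 50 from it on, written 5′ to 3′ in the direction of the gene. Capitals mark CG dinucleotides. The GENCODE models of Sema4d and Sema3c, whose positions are given below, begin farther upstream than these starts. The windows lie at chr4:43454577-43454876 on the minus strand for Cd72, at chr13:51756634-51756933 on the minus strand for Sema4d, at chr3:88461133-88461432 on the minus strand for Sema4a, and at chr5:17574566-17574865 on the plus strand for Sema3c.
Cd72: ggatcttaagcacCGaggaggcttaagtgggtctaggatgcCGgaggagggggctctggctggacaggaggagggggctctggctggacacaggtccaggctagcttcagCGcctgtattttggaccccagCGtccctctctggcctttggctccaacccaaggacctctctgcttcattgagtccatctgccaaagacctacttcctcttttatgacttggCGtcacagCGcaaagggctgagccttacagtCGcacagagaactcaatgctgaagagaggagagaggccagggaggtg
Sema4d: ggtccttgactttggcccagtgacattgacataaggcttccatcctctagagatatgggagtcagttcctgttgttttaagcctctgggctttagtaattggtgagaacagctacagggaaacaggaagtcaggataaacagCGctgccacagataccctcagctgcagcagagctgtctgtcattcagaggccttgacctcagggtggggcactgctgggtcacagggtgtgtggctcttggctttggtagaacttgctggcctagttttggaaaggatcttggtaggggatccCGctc
Sema4a: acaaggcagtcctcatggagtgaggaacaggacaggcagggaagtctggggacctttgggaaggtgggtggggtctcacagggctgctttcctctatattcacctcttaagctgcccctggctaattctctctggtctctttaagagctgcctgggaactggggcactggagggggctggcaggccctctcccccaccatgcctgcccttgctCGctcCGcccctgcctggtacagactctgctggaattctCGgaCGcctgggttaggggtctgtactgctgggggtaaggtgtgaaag
Sema3c: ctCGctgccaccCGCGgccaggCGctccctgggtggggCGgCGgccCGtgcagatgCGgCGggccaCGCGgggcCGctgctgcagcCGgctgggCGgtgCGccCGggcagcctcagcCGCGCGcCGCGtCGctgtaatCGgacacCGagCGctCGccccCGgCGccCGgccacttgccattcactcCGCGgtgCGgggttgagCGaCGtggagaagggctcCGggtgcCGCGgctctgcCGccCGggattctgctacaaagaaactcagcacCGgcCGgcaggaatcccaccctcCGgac

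The windows of Cd72, Sema4d and Sema4a held 7, 2 and 4 CG dinucleotides, while that of Sema3c, a scarce RNA here, held 42, the most of all member windows and a number reached by 3.03% of the 32851 RefSeq windows of 27025 genes. All 10 members had a window, 19 in all, since several have more than 1 annotated start. The 8 windows of the 3 abundant genes held between 2 and 14 CG dinucleotides, and the median over all windows was 7. The other 7 genes had 11 windows with between 6 and 42, of which 7 held more than 14, as 34.6% of all windows do. Scarce members were not all alike, since Sema4f, with no UMI, had a window with 7, the same as Cd72, and Sema6d had windows with 6 and 14. This is a description of annotated starts, and reads from 3′ ends do not show which start was used. The motif GAGGAAGT, of the type bound by the macrophage factor PU.1, was searched on both strands of the member windows. It was found in 1 of the 19, that of Cd72, where it lies on the opposite strand at bases 202 to 209 and ends 42 bases before the start, and it occurs in 3.20% of all RefSeq windows. A match of letters is not a binding site, and a missing match says nothing about the factor.

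**Figure D1:**
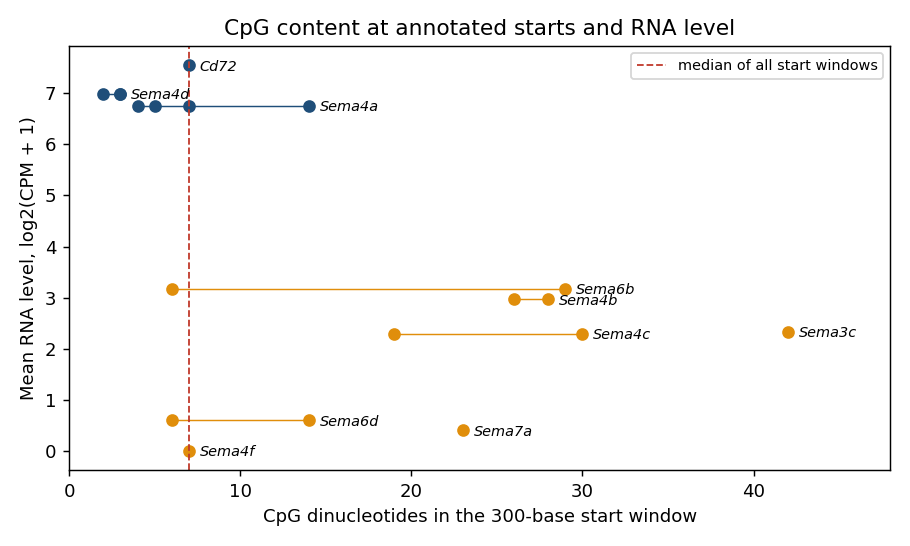
CG dinucleotides in each 300-base start window (horizontal axis, count) against the mean RNA level of the gene over the 5 libraries (vertical axis, log2(CPM + 1)), with lines joining the windows of 1 gene and a dashed line at the median of all windows. The 3 abundant genes, in blue, have windows with 2 to 14 CG dinucleotides, and the other 7 genes, in orange, have windows with 6 to 42.

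The library kit reads the 3′ end of polyadenylated RNA and tags each molecule with a random identifier (UMI) so that PCR copies count once. Each RNA then gives 1 count whatever its length, so CPM can be set side by side between genes. Library totals were between 1798469 and 2215855 UMIs, with 65.9% to 77.6% of them on listed genes. Rn45s, the gene of the ribosomal RNA precursor, is among the listed genes. It accounted for 1.01% and 3.19% of all UMIs in the PBS libraries and for 6.31% to 7.88% in the Sema3G libraries. The share of Rn45s and that of unlisted UMIs both enter every CPM value. The median log2 fold change of all 10088 genes tested was -0.22, against -0.036 with TMM scaling (edgeR's library factors) and 0.042 with CPM rescaled to the listed genes without Rn45s. Differences of Cd72, Sema4d and Sema4a are therefore also given below relative to the median. Those of Sema3c, Sema4b, Sema4c and Sema6b were 0.20, -0.36, -0.73 and -0.094 relative to it. The part of Rn45s and of unlisted UMIs in the results was not tested.

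The macrophage identity of the cells was checked with 8 marker genes, all of them detected. Csf1r, the M-CSF receptor, was the most abundant of them at 4442 ± 754 CPM under PBS (SD, n = 2) and 3497 ± 58.7 CPM under Sema3G (SD, n = 3). Both PBS sums, 12570 and 9761 CPM, exceeded the Sema3G sums of 8860, 9518 and 9295 CPM. The markers did not move one way, and none was called. Adgre1 (F4/80) had a log2 fold change of -0.53 and the integrin gene Itgam one of 0.21, with all Sema3G libraries below both PBS libraries for Adgre1 and above both for Itgam. Mertk, a receptor for apoptotic cells, was scarce, at 0.549 ± 0.777 CPM under PBS (SD, n = 2) and 2.30 ± 0.488 CPM under Sema3G (SD, n = 3), and was also higher in all Sema3G libraries. All Sema3G libraries were below both PBS libraries for 2 of the 8 markers and above both for 2, where 26.5% and 11.9% of all genes tested were. The part of the marker shifts in the member values was not tested. Since B cells also make Cd72, B cell markers matter most for the levels below. Ms4a1, Cd79a, Pax5 and Blk were at 0 in all libraries, and Cd79b was counted 5 and 5 times under PBS and 1, 0 and 1 times under Sema3G. The part of Cd79b-expressing cells in the Cd72 values was not tested. Of the T cell markers 2 of 5 were at 0, and their summed level was 0 and 3.21 CPM with PBS and 5.56, 0.903 and 0 CPM with Sema3G. Summed levels were at most 2.22 CPM for dendritic cell markers, 3 of 6 of them at 0, and at most 2.68 CPM for the 4 neutrophil markers used, 1 of them at 0. The 6 stromal and endothelial markers, all detected, summed to between 14.9 and 42.9 CPM, with overlapping groups. In bulk RNA, fewer cells of a type and less RNA per cell cannot be told apart.

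By level, Cd72 stood above Sema4d in 5 of 5 libraries, with a mean log2 difference in level of 0.56 ± 0.23 (SD, n = 5). It ranked at place 496 among 12790 genes with a UMI, Sema4d at 798 and Sema4a at 975. Sema4d stood above Sema4a in 4 of 5 libraries (0.24 ± 0.16 in log2 level), the exception being PBS replicate 2. A wide step followed, as the mean of Sema4a was 13.3 times that of Sema6b and their ranges over the libraries did not overlap. The next 4 genes, Sema6b, Sema4b, Sema3c and Sema4c, had means of 8.05, 6.81, 4.03 and 3.91 CPM, and no neighbours among them kept the same order in all libraries. Sema4c exceeded Sema6d in 5 of 5 libraries, and Sema6d and Sema7a, with means of 0.513 and 0.324 CPM, could not be ordered from so few UMIs. Sema4f was at 0.

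**Figure D2:**
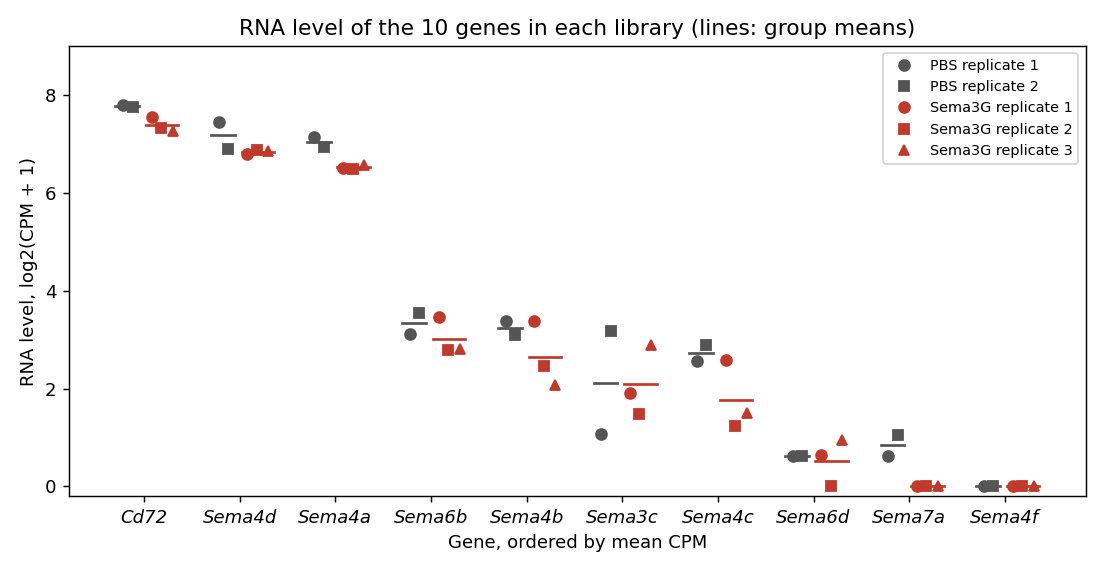
RNA level of each of the 10 genes (vertical axis, log2(CPM + 1)) in each of the 5 libraries, PBS in grey and Sema3G in red, with lines at the group means of the plotted values. Cd72, Sema4d and Sema4a lie above the other members in all libraries. Their 3 Sema3G points lie below both PBS points, as for 26.5% of all genes tested.

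Taken as a family, the 9 semaphorin members summed to 338 and 273 CPM with PBS and to 227, 219 and 227 CPM with Sema3G. The means were 306 ± 46.3 CPM (SD, n = 2) and 224 ± 4.33 CPM (SD, n = 3). In this sum both PBS libraries exceeded all 3 Sema3G libraries, as they did for 26.5% of all genes tested. With CPM rescaled to the listed genes without Rn45s the groups overlapped, at 442 and 377 CPM under PBS and 349, 367 and 391 CPM under Sema3G. Of the 11 further semaphorin genes in the table, 9 were at 0 in all libraries, including Sema3g itself, and Sema6a and Sema6c had 1 UMI each. The added ligand was thus not detected as RNA of the cells, and a count of 0 allows up to between 1.35 and 1.67 CPM per library, taking 3 counts as the limit. Such limits, and the intervals of ratios and shares below, cover counting error only.

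The make-up of the semaphorin RNA was dominated by a pair of class 4 genes in every library. Sema4a and Sema4d together gave 92.9% and 87.5% of the semaphorin UMIs with PBS and 87.5%, 93.8% and 91.7% with Sema3G, so the groups overlapped. Sema4d alone gave 51.5% (95% exact binomial interval 47.4 to 55.5) in PBS replicate 1 and 43.1% (38.8 to 47.6) in PBS replicate 2. With Sema3G it gave between 48.2% and 53.3%. The share of Sema4a varied less, from 39.4% to 44.3% over all 5 libraries. The ratio of Sema4a to Sema4d was 0.804 and 1.03 with PBS and 0.817, 0.761 and 0.830 with Sema3G, and PBS replicate 2 was the only library in which Sema4a exceeded Sema4d.

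**Figure D3:**
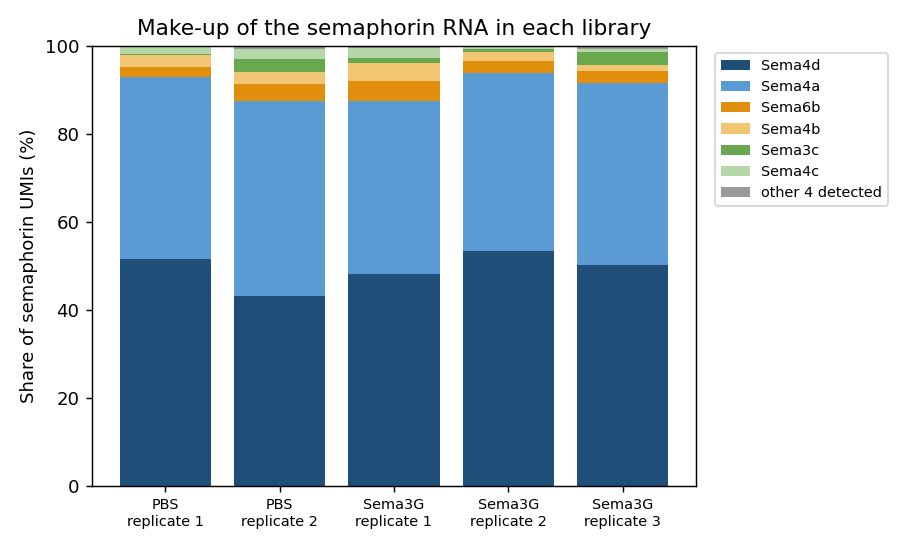
Share of each gene in the UMIs of all 20 semaphorin genes (vertical axis, percent), stacked for each of the 5 libraries. Sema4d and Sema4a make up between 87.5% and 93.8% of every bar, and the other 4 detected genes drawn in grey are Sema6d, Sema7a, Sema6a and Sema6c.

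Sema3c was the only class 3 gene detected. It encodes a secreted ligand of neuropilins with plexin A and plexin D1 receptors, and maps to chromosome 5 (plus strand, 17574281 to 17730268, in GRCm38 as for all positions here). It was counted 2 and 15 times under PBS and 5, 4 and 14 times under Sema3G, or 1.10 and 8.03 CPM against 2.78, 1.81 and 6.45 CPM. The 2 PBS libraries were the lowest and the highest of the 5, and they differed by 7.31-fold (95% exact binomial interval 1.70 to 65.9). The log2 fold change was -0.02 with a standard error of 0.58 and a 95% interval from -1.25 to 1.21 (limma), so the interval holds differences of 1 log2 unit either way. Its sign changed between alternatives, with 0.23 for CPM rescaled to the listed genes without Rn45s and 0.11 for TMM-scaled CPM. Without PBS replicate 1 the value was -1.07, and without PBS replicate 2 it was 1.03, neither past the adjusted p limit.

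Among the class 4 genes, which encode transmembrane ligands that can be shed, Sema4a had groups that did not overlap with or without Rn45s and unlisted UMIs in the totals. It maps to chromosome 3 (minus strand, 88435959 to 88461182). Sema4a was at 140 and 121 CPM (255 and 226 UMIs) with PBS and at 89.5, 88.9 and 94.5 CPM (161, 197 and 205 UMIs) with Sema3G. The lowest PBS library was above the highest Sema3G library, as in 26.5% of all genes tested. The Sema3G libraries differed among themselves by less than the PBS libraries did. The group means were 131 ± 13.5 CPM (SD, n = 2) and 91.0 ± 3.07 CPM (SD, n = 3), a ratio of 0.698 in summed counts (95% exact binomial interval 0.617 to 0.790). The log2 fold change was -0.51 (standard error 0.19, 95% interval -0.90 to -0.12, limma adjusted p = 0.139), or -0.29 relative to the median of all genes. With 1 library left out in turn it lay between -0.62 and -0.41. With CPM rescaled to the listed genes without Rn45s, the libraries were at 183 and 167 against 138, 149 and 163 CPM, still without overlap. The log2 fold change there was -0.23 (limma adjusted p = 0.597), and the share of all genes apart in that scaling was not computed. In a fit with the replicate number as a block, the log2 fold change was -0.54 with an adjusted p of 0.0491 from limma, the only setting in which a member was called. The blocked fit called 5.68% of all genes, beside 1.80% without the block. That fit has 1 residual degree of freedom. Since Sema3G replicate 3 has no partner there, its estimate is the same as without that library, where the adjusted p from limma was 0.392.

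Sema4d, on chromosome 13 (minus strand, 51685529 to 51793747), showed a difference that depended on which control library was kept. It was at 174 and 118 CPM (317 and 220 UMIs) with PBS and at 110, 117 and 114 CPM (197, 259 and 247 UMIs) with Sema3G. PBS replicate 2 was close to the Sema3G libraries, and PBS replicate 1 was 1.48 times PBS replicate 2 (95% exact binomial interval 1.24 to 1.76). The group means were 146 ± 39.9 CPM (SD, n = 2) and 113 ± 3.69 CPM (SD, n = 3). The log2 fold change was -0.33 (standard error 0.20, 95% interval -0.75 to 0.083, limma adjusted p = 0.338), or -0.11 relative to the median. Without PBS replicate 1 it was -0.054, which is 0.077 above the median of that fit, and without PBS replicate 2 it was -0.61. With CPM rescaled to the listed genes without Rn45s the groups overlapped, at 227 and 163 CPM with PBS and 168, 196 and 196 CPM with Sema3G.

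The other class 4 genes were scarce. Sema4b, on chromosome 7 (plus strand, 80186841 to 80226527), was counted 17 and 14 times under PBS and 17, 10 and 7 times under Sema3G. Its level was 8.42 ± 1.30 CPM (SD, n = 2) and 5.73 ± 3.29 CPM (SD, n = 3), and Sema3G replicate 1 was above both PBS libraries. The log2 fold change was -0.59 (95% interval -1.48 to 0.31, limma adjusted p = 0.428), with -0.96 without Sema3G replicate 1 and -0.30 without Sema3G replicate 3. Sema4c encodes a ligand of plexin B2 and maps to chromosome 1 (minus strand, 36548639 to 36558349). It was counted 9 and 12 times under PBS and 9, 3 and 4 times under Sema3G, or 5.68 ± 1.05 CPM (SD, n = 2) and 2.73 ± 1.98 CPM (SD, n = 3). Sema3G replicate 1 was within the range of the PBS libraries, and the other 2 Sema3G libraries were below it. Sema4c had the lowest log2 fold change of the members, -0.96 (95% interval -1.98 to 0.067, limma adjusted p = 0.269), and the ratio in summed counts was 0.454 (95% exact binomial interval 0.222 to 0.914). Without Sema3G replicate 1 the log2 fold change was -1.36 (limma adjusted p = 0.0898). Exons of Sema4c overlap the antisense RNA gene D430040D24Rik, and the sources used here do not give whether the counting used strand, so these counts are uncertain. Sema4f, a class 4 gene described in neural tissue, maps to chromosome 6 (minus strand, 82911885 to 82939769) and had 0 UMIs in all 5 libraries, which allows levels of up to 1.67 CPM.

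The class 6 genes encode transmembrane ligands of the plexin A family. Sema6b, on chromosome 17 (minus strand, 56123085 to 56140343), was counted 14 and 20 times under PBS and 18, 13 and 13 times under Sema3G, or 9.20 ± 2.13 CPM (SD, n = 2) and 7.29 ± 2.36 CPM (SD, n = 3). The groups overlapped, and the log2 fold change was -0.32 (95% interval -1.10 to 0.46, limma adjusted p = 0.638). It was -0.10 without PBS replicate 2, -0.53 without PBS replicate 1 and -0.54 without Sema3G replicate 1. Sema6d, whose protein acts on myeloid cells through plexin A1 with TREM2 and DAP12, maps to chromosome 2 (plus strand, 124089969 to 124667770). It was counted 1 and 1 times under PBS and 1, 0 and 2 times under Sema3G. The summed counts of 2 and 3 give a ratio of 0.895 with an exact binomial interval from 0.102 to 10.7, so a difference was not detectable at this depth.

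Sema7a encodes the GPI-anchored semaphorin, a ligand of plexin C1 and of integrins with the beta 1 chain, and maps to chromosome 9 (plus strand, 57940112 to 57962865). It had 1 and 2 UMIs with PBS and 0 in each Sema3G library. The 3 UMIs over the PBS group are at the limit of 3 counts, so no fold is given. The interval of the ratio of summed counts, 0 to 1.44, includes equal levels.

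Cd72, the receptor of the set and its most abundant member, maps to chromosome 4 (minus strand, 43446462 to 43454628). It was at 220 and 214 CPM (401 and 399 UMIs) with PBS and at 186, 158 and 152 CPM (335, 351 and 330 UMIs) with Sema3G. The PBS libraries were nearly equal, and all 3 Sema3G libraries were below them, as in 26.5% of all genes tested. The group means were 217 ± 4.75 CPM (SD, n = 2) and 166 ± 18.2 CPM (SD, n = 3), a ratio of 0.757 in summed counts (95% exact binomial interval 0.690 to 0.832). The log2 fold change was -0.39 (standard error 0.18, 95% interval -0.78 to -0.010, limma adjusted p = 0.227), or -0.17 relative to the median of all genes. With 1 library left out it lay between -0.48 and -0.34. With CPM rescaled to the listed genes without Rn45s the groups nearly met, at 288 and 295 CPM with PBS and 286, 265 and 262 CPM with Sema3G, and the log2 fold change was -0.10.

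The 3′ end of Cd72 overlaps exons of Tesk1, a kinase gene on the opposite strand from 43441939 to 43448064. Tesk1 was at 85.7 and 63.2 CPM with PBS and at 51.2, 46.5 and 42.4 CPM with Sema3G (log2 fold change -0.65, limma adjusted p = 0.115). It was lower in all 3 Sema3G libraries, as were 26.5% of all genes tested. Reads of the genes can be told apart only if strand was used in counting, so both are uncertain, and the part of Tesk1 in the Cd72 values was not tested. Among the 2248 genes averaging 50 CPM or more, the pattern over the 5 libraries was closest to that of Cd72 for Api5, Fth1 and B4galt6. Their root mean square differences in centred log2(CPM + 1) were 0.019, 0.022 and 0.026. They are the closest of 2248 genes over only 5 libraries, so the choice favours small differences, and shared regulation was not tested. The CPM of Cd72 ran in the same order over the libraries as the share of UMIs on listed genes, whose part was not tested. Api5 encodes an inhibitor of apoptosis, Fth1 the ferritin heavy chain and B4galt6 a glycolipid-making galactosyltransferase.

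The calls among the members were read beside those among all genes. Of the 7 tested, 0 passed the adjusted p limit in limma, where 1.80% of all 10088 genes did, 1.59% higher and 0.218% lower with Sema3G. edgeR's quasi-likelihood test and DESeq2 on the recovered counts called 304 and 244 of these genes and 0 members. DESeq2 gave Sema3c and Sema4c no adjusted p. At an unadjusted p under 0.05, 2 of the 7 were lower in limma, Sema4a and Cd72, against a background of 14.2%, and 0 in edgeR or DESeq2. This count was also 0 in limma with TMM-scaled CPM and with CPM rescaled to the listed genes without Rn45s. Leaving out a Sema3G library gave 4 without Sema3G replicate 1 (where 20.6% of all genes were lower at this p), 1 without Sema3G replicate 3, and 0 without Sema3G replicate 2. In the other settings the share of all genes lower at this p was not computed, so their counts cannot be read beside a background. The log2 fold change was below 0 for all 7, as for 67.5% of all genes tested. In 3 of the 7, Sema4a, Sema4d and Cd72, all Sema3G libraries were below both PBS libraries, and this held for 26.5% of all genes. The median log2 fold change of the 7 was -0.39 and that of all genes -0.22, with 5% of all genes below -0.80 and 5% above 0.82. The 7 passed the filter of a mean of 1 CPM over both groups together, and the other 3 members were not tested there. With no filter, Sema6d and Sema7a were tested too and were not called (limma adjusted p = 0.903 and 0.230), and Sema7a, with 3 UMIs in all, joined the members at an unadjusted p under 0.05, making 3.

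**Figure D4:**
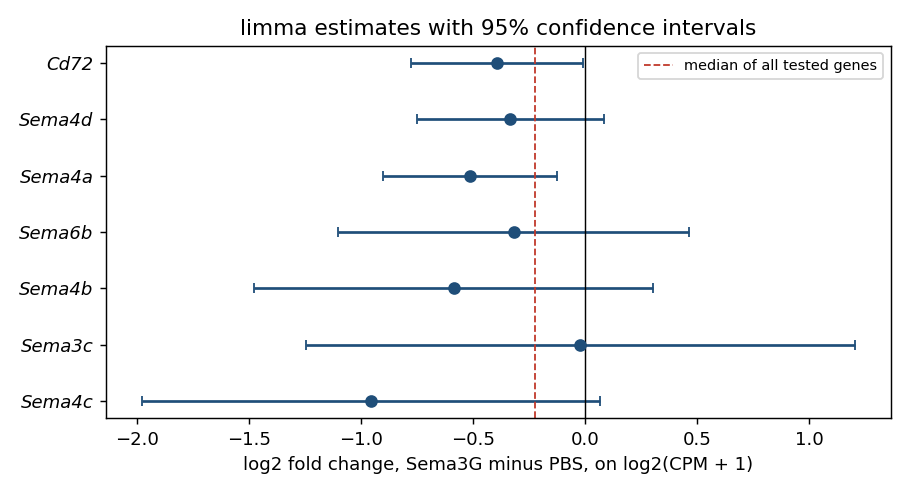
Log2 fold change with Sema3G (horizontal axis, on log2(CPM + 1)) of the 7 members tested, with points at the limma estimates and bars for their 95% confidence intervals. The intervals of Sema4a and Cd72 lie below 0, that of Cd72 reaching -0.010, and the intervals of all 7 genes include the dashed median of all genes at -0.22.

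Several receptors of these ligands were as abundant as Cd72, Sema4d and Sema4a. Plxnb2, which binds Sema4C and Sema4D, was at 271 ± 35.7 CPM under PBS (SD, n = 2) and 221 ± 14.5 CPM under Sema3G (SD, n = 3), with a log2 fold change of -0.29 (limma adjusted p = 0.371). Plxnb1, the high-affinity receptor of Sema4D, had 1 UMI in all 5 libraries together. Ptpn6, whose phosphatase acts below CD72, was at 196 ± 23.5 and 212 ± 20.2 CPM with overlapping groups (log2 fold change 0.11, limma adjusted p = 0.745). The neuropilins, co-receptors of class 3 ligands, were at 196 ± 14.3 and 148 ± 31.9 CPM for Nrp1 (log2 fold change -0.42, limma adjusted p = 0.235) and at 220 ± 50.0 and 183 ± 8.91 CPM for Nrp2 (-0.24, limma adjusted p = 0.465). Nrp2, which encodes a receptor of the added Sema3G, had overlapping groups. Plexin genes of the A, C and D classes were less abundant.

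Plxna1, the plexin of Sema6D, was at 67.0 ± 6.22 and 51.1 ± 11.6 CPM in the PBS and Sema3G libraries (log2 fold change -0.41, limma adjusted p = 0.302). Its partners on myeloid cells, the receptor Trem2 and the adaptor Tyrobp (DAP12), had log2 fold changes of -0.50 and -0.51 with overlapping groups. Their adjusted p from limma was 0.208 and 0.230. For Sema7A, the receptor genes Plxnc1 and Itgb1 were at 14.7 ± 7.17 and 15.2 ± 1.11 CPM and at 238 ± 22.8 and 255 ± 8.83 CPM, with log2 fold changes of 0.12 and 0.10. Plxnd1, a receptor for class 3 and class 4 ligands, was at 28.0 ± 6.27 and 25.9 ± 2.18 CPM. In the whole list of 21 receptor genes, 13 could be tested and 0 were called, where 1.80% of all genes were. An unadjusted p under 0.05 in limma was found for 3 (21.1% of all genes) and a log2 fold change below 0 for 8 (67.5% of all genes). The median was -0.24 and that of all genes -0.22.

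Proteases that cleave semaphorins or shed them from the membrane formed a list of 5 genes, of which 4 could be tested. None was called in limma, 2 had an unadjusted p under 0.05 (21.1% of all genes did), and the median log2 fold change was -0.30 beside -0.22 for all genes. Furin, the proprotein convertase that cleaves class 3 semaphorins, had the lowest value, and with Mmp14 it is named here after its values were seen. It was at 179 and 216 CPM with PBS and at 143, 110 and 106 CPM with Sema3G (log2 fold change -0.72, limma adjusted p = 0.0671). All Sema3G libraries were below both PBS libraries, as in 26.5% of all genes. The same separation was seen for Mmp14, a membrane protease known to shed Sema4D, at 530 ± 8.58 CPM (SD, n = 2) and 393 ± 16.3 CPM (SD, n = 3), with a log2 fold change of -0.43 (limma adjusted p = 0.194).

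Genes that act below plexins and CD72 formed a list of 26, including small GTPases, their regulators, MICAL oxidases and collapsin response mediators. Of these 21 could be tested and 0 were called in limma. The log2 fold changes were below 0 in 16 and above 0 in 5, with a median of -0.28 beside -0.22 for all genes, and 4 had an unadjusted p under 0.05. All Sema3G libraries were below both PBS libraries for 7 of the 21 and above both for 3, where 26.5% and 11.9% of all genes were. Over all genes 67.5% had a log2 fold change below 0 and 21.1% an unadjusted p under 0.05.

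Another scaling multiplies all genes of a library by the same factor, so the estimates of abundant members had to move together. In the comparison of alternatives, the log2 fold changes of Cd72, Sema4a, Sema4b, Sema4c, Sema4d and Sema6b were below 0 in each of the settings that gave them a value, and Sema3c alone changed sign. Relative to the median of all genes, Sema4a lay between -0.36 and -0.23, Cd72 between -0.24 and -0.12, and Sema4d between -0.32 and 0.077 over these settings. Sema4d was above the median only without PBS replicate 1.

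**Figure D5:**
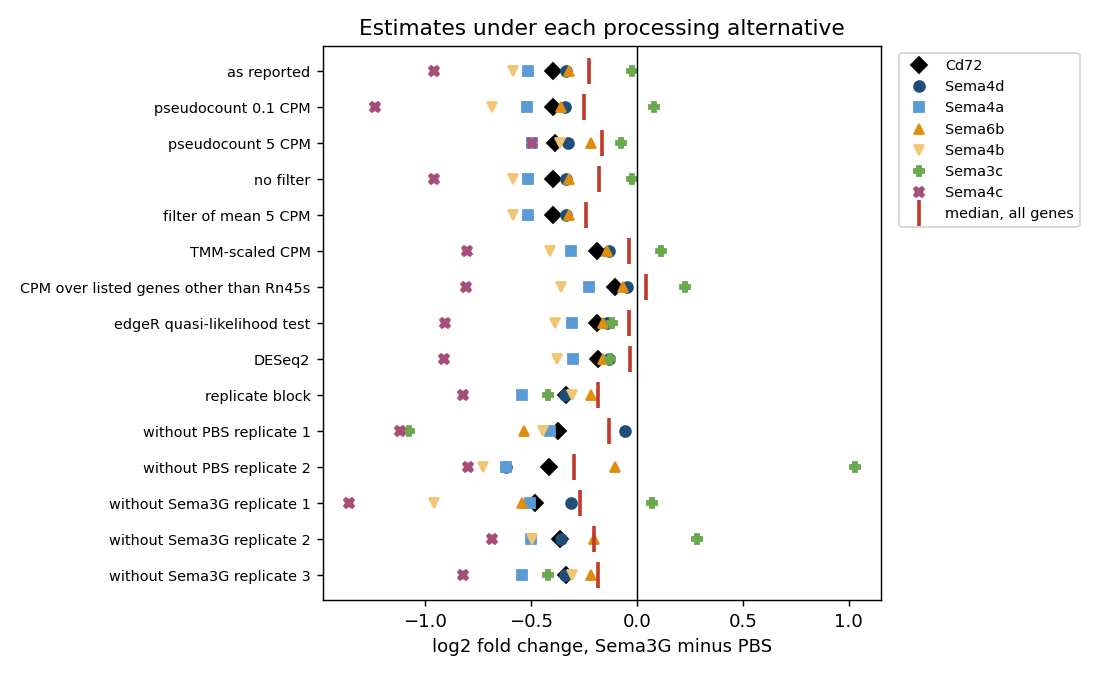
Log2 fold change with Sema3G (horizontal axis) of the 7 members tested in each processing setting (vertical axis), with a red tick for the median of all genes. The points of Cd72, Sema4a and Sema4d shift with the red tick under the other scalings, as a common factor per library requires. The points of Sema3c spread from -1.07 to 1.03.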

How the data were processed

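RNA of LPS-stimulated BMMs, 2 samples with PBS and 3 with Sema3G, was sequenced by the authors from 3′ ends with UMIs. Reads were mapped to mm10 and UMIs were counted with Strand NGS by the authors, who deposited CPM values. Their processing notes name edgeR 3.12, while the sources used here do not give the annotation, any filter or the use of strand. A further 3 columns, the p-values, q-values and ranking of the authors' own comparison, were not used. All values were whole multiples of 1 UMI per library (100% within 0.01), which gave the counts. UMIs on listed genes numbered 1283029 to 1487137, and 3 counts correspond to between 1.35 and 1.67 CPM. In 2 rows a symbol was repeated, none of them a member. Counts of Sema3G replicates 2 and 3 were the closest of any pair (chi-square divided by degrees of freedom 1.77, 7918 genes with 20 or more counts), where the other pairs gave 6.57 to 29.6. The spread of this pair exceeds counting noise, which does not show that they came from separate cultures. The labels name 5 samples, and 5 were counted.

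Values were analysed as log2(CPM + 1), a scale that understates changes of low genes, in limma 3.58.1 under R 4.3.3, using a variance trend. The 10088 genes averaging 1 CPM or more were tested, two-sided, with Benjamini-Hochberg adjustment over all of them. The recovered counts were also tested in edgeR 4.0.16 and in DESeq2 1.42.0, and the scripts were tested on simulated data. The alternatives changed the pseudocount (0.1 and 5 CPM), filter, scaling, test and replicate block, and left out each library. Members and lists were chosen with earlier results of these data known. All members were named, with the list genes past the adjusted p and the known receptors or partners of members. Positions and overlaps came from GENCODE M21, and start windows from RefSeq (GRCm38.p6). The last 25 bases of 16 of the 19 member windows were found in a GENCODE transcript, not those of the Sema4a window printed.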

Additional observations from a re-analysis of the deposited data

How the results depend on the processing

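Of 96 alternative values of the 7 members, 89 kept their direction and side of the limit, 6 changed sign, all of Sema3c, and 1 became a call. Sema3c, at -0.02, was 0.23 with CPM rescaled to the listed genes without Rn45s, 0.11 with TMM-scaled CPM, 0.080 with a pseudocount of 0.1 CPM, and -1.07 to 1.03 with 1 library left out. Members called went from 0 to 1 with the replicate block (Sema4a, -0.54, 1 residual degree of freedom), and stayed at 0 with 1 library left out. The 182 calls over all genes became 498 with CPM rescaled to the listed genes without Rn45s, 328 with TMM-scaled CPM, 304 with edgeR, 108 with no filter and 573 with the block, and with 1 library left out lay between 27 and 710 (27 leaving out Sema3G replicate 2, 710 leaving out Sema3G replicate 1, 32 leaving out Sema3G replicate 3 and 99 leaving out PBS replicate 1). Their split, 160 higher and 22 lower, became 325 and 3 with TMM, 496 and 2 with the other scaling, 301 and 3 with edgeR, 243 and 1 with DESeq2, 298 and 275 with the block and 270 and 440 without Sema3G replicate 1. The cause was not tested. Deviations from the group means correlated at r of 0.33 and 0.23 over 6381 genes for the 2 same-numbered pairs, but also at 0.21 for PBS replicate 2 with Sema3G replicate 3. The deviations of 2 PBS libraries mirror each other, so these values are not independent, and no label says what the numbers mark. Sema3c and Sema4c had no value with the filter of 5 CPM, and DESeq2 gave them no adjusted p. A PBS library left alone is assumed to vary like the others. Depth limits Sema6d, Sema7a and Sema4f, for which no difference was detectable.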
